A study of Mus musculus with 2 samples.

Results

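The cells described here are the Cd8b1-transcribing members of a library of sorted lung Vγ1 T cells from mice lacking Vγ4 and Vγ6 chains (KO). They were chosen by transcripts counted as unique molecular identifiers (UMIs, 1 for each captured RNA molecule). A member had at least 1 Cd8b1 UMI and at least 1 UMI of Cd3d, Cd3e, Cd3g or Trdc. It had no UMI of the 4 Trav15 dv6 genes, and it had UMIs of fewer than 3 of 8 IL-17-type genes (Tmem176a, Tmem176b, Cxcr6, Il18r1, Aqp3, Ccr6, Icos, Serpinb1a) and of fewer than 3 of 7 cytotoxic genes (Gzma, Gzmb, Klre1, Prf1, Xcl1, Klrb1c, Eomes). By this rule 717 of the 6634 cells kept in the KO library were members, a share of 10.8% (exact 95% interval 10.1 to 11.6%). A cell was kept where more than 200 but fewer than 4000 genes were detected and less than 10% of its UMIs were mitochondrial, which left 9139 cells in both libraries.

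The KO library held Vγ1+ γδ T cells of B6.Cg-Tcrgtm1lku (B6.Vg4-/-Vg6-/-) mice, and the WT library held Vγ1- γδ T cells of C57BL/6NCrl mice. The donors were uninfected mice of both sexes, 5 to 7 weeks old, and the tissue was lung. Each group was 1 library, so there are no tests, and every interval covers counting error only. Sort, genotype, strain and library differed together and cannot be told apart. The 717 members held 2659458 UMIs, with a median of 3318 UMIs and 1496 genes per cell. Of 23 barcodes found in both libraries, 3 belonged to members.

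CD8β, the product of Cd8b1, is a coreceptor chain that reaches the cell surface paired with CD8α, the product of Cd8a. The pair is best known from αβ T cells that see peptides on MHC class I, whereas γδ T cells recognise their ligands without it and many lack CD8 altogether. Vγ1 T cells are a γδ subset known for interferon-γ, and T cells that travel between blood and lymphoid tissue are known for S1pr1, Ccr7 and Klf2.

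The targeted chains were examined first. No member had a Tcrg-V6 UMI, which by a limit of 3 counts allows up to 0.418% of members with a captured UMI and sets no limit on cells expressing the gene. Tcrg-V4 UMIs were nevertheless read in 70 of 717 members (9.76%), against the label of the library, and in 318 of 2869 comparison cells (11.1%). Whether these are reads from the disrupted locus was not tested, and directions drawn from the KO label below rest on that label.

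Every Cd8b1 cell of the library was accounted for. Cd8b1 UMIs were found in 961 cells, of which 717 were members. The dv6 genes removed 199 of the others, the IL-17-type limit 43, the cytotoxic limit 1 and the lack of any T cell transcript 1. Just inside the limits lay 63 members with 2 IL-17-type genes and 17 with 2 cytotoxic genes, and just outside lay 16 Cd8b1 cells with 3 IL-17-type genes and 1 with 3 cytotoxic genes. Of the members, 369 had a single Cd8b1 UMI, 176 had 2, 172 had at least 3 and 25 had at least 6, with 17 as the highest value. The members were thus split about evenly between cells resting on 1 captured molecule and cells with more.

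The comparison cells, called counterparts, were the 2869 KO cells that met every other part of the rule and had no Cd8b1 UMI. Their median depth was 3192 UMIs, close to that of the members, but their 5th percentile was 1149.8 UMIs against 1986 in members. Shares of cells with a UMI are therefore also given after random thinning of each cell to 2000 UMIs, for which 39 members and 442 counterparts were too shallow. Counterparts may hold Cd8b1 RNA that was not captured. Cd8b1 UMIs were in 67 of 1698 KO cells with 3 or more IL-17-type genes (3.95%, 3.07 to 4.98%) and in none of 29 KO cells with myeloid or B cell genes and no T cell transcript, which allows up to 10.3%.

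The label was then checked against its markers. Cd8b1 (ENSMUSG00000053044) and Cd8a (ENSMUSG00000053977) are neighbouring protein-coding genes on chromosome 6 of GRCm38, at chr6:71322788-71337494 and chr6:71373427-71379173. Members held 1424 Cd8b1 UMIs (exact Poisson interval 1351 to 1500), the value that chose them. Cd8a was read in 94 of 717 members (13.1%) with 119 UMIs, and in 2.06% of counterparts with 72 UMIs. In UMIs of the gene per 1000000 UMIs of the group (CPM) this was 44.7 against 7.25, a log2 ratio of 2.63 (95% counting interval 2.19 to 3.07). Most members therefore had Cd8b1 UMIs and no captured Cd8a UMI. Even the member with 17 Cd8b1 UMIs, in a cell of 8252 UMIs, had none.

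The other 3 markers did not set the members apart from their counterparts to a like degree. Dapl1, a marker of resting T cells, stood at 50.8 CPM in members and 34.7 in counterparts (log2 ratio 0.55, 0.25 to 0.84). S1pr1, the receptor through which T cells leave tissue, stood at 419 and 400 CPM (0.07, -0.03 to 0.16). Ms4a4b, a T cell membrane protein gene, stood at 948 and 998 CPM (-0.07, -0.14 to -0.01). S1pr1 was read in 71.4% of members and 65.5% of counterparts, and after thinning in 53.7% and 51.7%. S1pr1 and Ms4a4b were thus levels that members shared with the Cd8b1-zero cells, and Cd8a was the marker that went with Cd8b1.

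**Figure D1:**
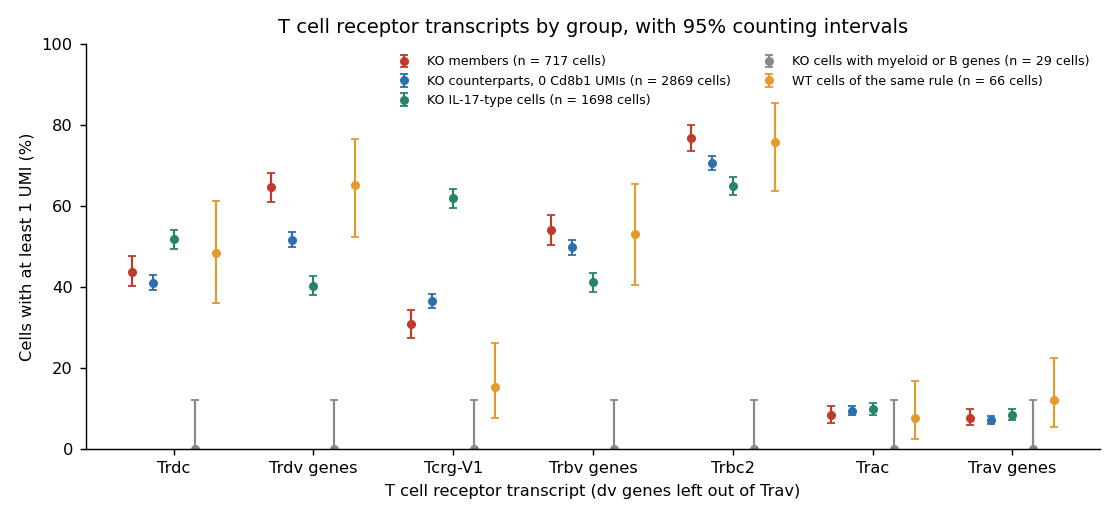
Share of cells with at least 1 UMI of each T cell receptor (TCR) transcript (y axis, %), by group of cells (colours), with exact 95% counting intervals as bars. Members and counterparts sit close together for Trdc, Trbv and Trac. The 29 KO cells with myeloid or B cell genes are at 0 for Trbv and Trac, and at 0 for Trdc by their definition.

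Because Cd8b1 is best known from αβ T cells, the TCR transcripts of the members were examined next. Trdc, the constant segment of the δ chain, was read in 314 of 717 members (43.8%, 40.1 to 47.5%) and in 41.0% of counterparts (39.2 to 42.8%), at 189 and 186 CPM. The 29 myeloid or B cells, at a median depth of 2436 UMIs, were chosen for having no Cd3d, Cd3e, Cd3g or Trdc UMI. Their lack of Trdc is therefore fixed by that choice. A UMI of Trdc, a δ variable gene, Tcrg-V1 or Tcrg-C4 was present in 619 members (86.3%, 83.6 to 88.8%) and in 84.0% of counterparts. Members thus carried γδ transcripts about as often as the cells beside them.

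Transcripts of the β chain were as common. A Trbv gene was read in 387 members (54.0%, 50.2 to 57.7%) and in 49.7% of counterparts (47.9 to 51.6%), at 506 and 523 CPM. After thinning these shares were 42.9% and 41.9%. Trbc2, a constant segment of the β chain, was read in 76.8% of members and 70.6% of counterparts, and Trbc1 in 42.8% and 36.0%. KO cells with IL-17-type genes had a Trbv UMI in 41.1% of cells, and the myeloid or B cells in 0 of 29. In the KO library β transcripts were therefore also common in cells without Cd8b1 UMIs.

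Transcripts of the α chain were rare in both groups. Trac, its constant segment, was read in 60 members (8.37%, 6.45 to 10.6%) and in 9.34% of counterparts (8.30 to 10.5%), at 27.8 and 33.2 CPM. Of members with a Trbc1 or Trbc2 UMI, 52 of 606 (8.58%) also had a Trac UMI. Trav genes other than those shared with the δ chain were read in 7.67% of members and 7.08% of counterparts. Both Trac and Trbv UMIs with no γδ transcript of any of the kinds above were found in 6 members, 0.837% of the 717. In counterparts the same combination was found in 12 cells (0.418%).

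Within single cells the transcripts of the β and δ chains were not exclusive. Trdc was read in 45.7% of the 387 members with a Trbv UMI (40.7 to 50.9%) and in 41.5% of the 330 members without one (36.1 to 47.0%). Trac or Trbv without Trdc was seen in 226 members (31.5%) and in 31.0% of counterparts. Of the members with Trbv, 264 had UMIs of 1 Trbv gene and 102 of 2. In all 23 of 35 Trbv genes had a UMI in a member. Trbv12-2 held 17.6% of the Trbv UMIs of members and 15.9% of those of counterparts, and Trbv15 held 14.5% and 14.1%. The order of the leading pair was the same in both groups.

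Variable gene use of the δ chain was spread over several genes in members. The rule had removed all cells with a dv6 UMI, from members and counterparts alike. The shares below therefore leave the dv6 genes out and are not those of all Cd8b1 cells. Trdv1 held 944 of 2272 δ variable UMIs (41.5%, 39.5 to 43.6%), Trdv2-2 31.4%, Trdv5 11.3%, Trav13-4-dv7 11.2% and Trav21-dv12 3.61%. In counterparts Trdv1 held 32.7% (31.7 to 33.8%), Trdv2-2 31.2%, Trdv5 14.4%, Trav13-4-dv7 11.6% and Trav21-dv12 8.48%. Among cells with UMIs of a single δ variable gene, Trdv1 was that gene in 33.4% of 380 members (28.7 to 38.4%) and in 27.3% of 1427 counterparts (25.03 to 29.72%). Trdv2-2 led that count in both groups, with 37.4% and 34.8% of cells. Trdv genes in sum were read in 64.6% of members and 51.6% of counterparts, and after thinning in 56.6% and 47.2%. The intervals of the Trdv1 cell shares overlapped. In counterparts with UMIs of both Ly6c2 and Ccl5, Trdv1 held 40.6% of δ variable UMIs, and in those with both Ccr9 and Cd24a 29.8%. Trdv genes in sum were read in 53.2% and 72.6% of these cells. Against all counterparts, the Trdv1 share of UMIs and the Trdv total were thus higher in members, and Trav21-dv12 was lower. Tcrg-V1, the variable gene of the sorted γ chain, went the other way, with a UMI in 30.8% of members (27.5 to 34.4%) and 36.5% of counterparts (34.7 to 38.3%), at 123 and 178 CPM.

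The members were then compared gene by gene with the counterparts. Among 8160 genes with at least 100 UMIs over both groups, 16 (0.196%) were at least 2-fold higher in members and 157 (1.92%) at least 2-fold lower, and the median log2 ratio was -0.06. The UMI minimum is a sum over groups of unequal size, so a gene high in counterparts passed it at a lower level than a gene high in members, and the balance of the 2 counts depends on that. The rule chose cells by Cd8b1, so these values describe the chosen cells.

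Socs3, which encodes an inhibitor of cytokine receptor signalling, stood out among the higher genes by its level. It lies on chromosome 11 at chr11:117966079-117970047. Members held 2890 Socs3 UMIs (2786 to 2997), with a UMI in 88.8% of cells, a median of 3 per cell and a highest value of 18. Counterparts held 5219, with a UMI in 58.0% of cells. The levels were 1087 and 526 CPM, a log2 ratio of 1.05 (0.98 to 1.11). After thinning the shares were 79.6% and 49.6%. IL-17-type KO cells stood at 278 CPM and the myeloid or B cells had a thinned share of 29.4%. Socs3 was thus a near-general feature of members rather than the mark of a few cells.

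The further higher genes were Gm14085 (44.4 against 15.3 CPM, log2 ratio 1.53), Gadd45g (202 against 83.3 CPM, 1.28), Ikzf4 (1.22), Gbp5 (1.09), Ppic (1.08), Sugct (1.08), Tdrp (1.003), Itgae (0.98), Map3k8 (0.90) and Gm8369 (0.88). Gadd45g is a stress and cytokine response gene, and it was read in 34.5% of members and 15.9% of counterparts. Ikzf4 encodes a zinc finger factor of the Ikaros family, and Gbp5 an interferon-induced guanylate-binding protein. Itgae encodes the CD103 integrin chain of tissue lymphocytes. It was read in 16.0% of members and 7.91% of counterparts. Itgae stood at 56.4 CPM in members, 51.1 in IL-17-type KO cells and 49.5 in counterparts with both Ccr9 and Cd24a UMIs. In counterparts with both Ly6c2 and Ccl5 UMIs it stood at 13.1 CPM. Ikzf4 stood at 36.5 CPM in members and at 4.40, 37.1 and 6.72 CPM in those groups in turn. The levels of Itgae and Ikzf4 were thus not particular to members.

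Other genes of the cytokine response were singled out after their values had been seen. Socs1, a second inhibitor of cytokine signalling, stood at 253 CPM in members and 148 in counterparts (log2 ratio 0.77, 0.64 to 0.91). Irf1, an interferon-induced transcription factor, stood at 871 and 536 CPM (0.70, 0.63 to 0.77), and Batf, an AP-1 family factor, at 228 and 139 CPM (0.71, 0.57 to 0.85). Cish, another gene of the SOCS family, stood at 43.6 and 38.5 CPM with an interval that held 0 (0.18, -0.13 to 0.48). The fixed interferon list had a median of 0.08 over 12 genes, 0 of them past 2-fold, beside 0.196% of all genes higher and 1.92% lower. Isg15, an antiviral gene of that list, stood at 53.4 against 103 CPM (-0.94, -1.21 to -0.69). Intervals of the interferon list were above 0 for 2 genes and below 0 for 2.

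The promoters of Socs3, Irf1 and Gbp5 are shown because each holds a palindrome, TTCNNNGAA, that STAT factors of cytokine pathways are known to bind. The motif was chosen after the values had been seen and reads the same on both strands. The windows are the 250 bases before the start site in RefSeq, build GRCm38.p6, 5′ to 3′ on the gene's strand, with the motif in capitals. They lie at chr11:117969367-117969616 on the minus strand, chr11:53769764-53770013 on the plus strand and chr3:142496684-142496933 on the plus strand.
Socs3: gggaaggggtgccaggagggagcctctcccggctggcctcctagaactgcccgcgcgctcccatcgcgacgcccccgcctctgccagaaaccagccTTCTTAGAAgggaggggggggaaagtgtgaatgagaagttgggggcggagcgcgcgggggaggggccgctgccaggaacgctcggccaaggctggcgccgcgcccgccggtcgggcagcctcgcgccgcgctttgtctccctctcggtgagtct
Irf1: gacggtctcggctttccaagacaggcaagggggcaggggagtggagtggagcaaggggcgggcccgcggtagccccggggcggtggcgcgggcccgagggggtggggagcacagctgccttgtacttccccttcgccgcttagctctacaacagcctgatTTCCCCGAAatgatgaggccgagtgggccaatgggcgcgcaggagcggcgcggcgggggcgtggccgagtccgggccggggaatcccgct
Gbp5: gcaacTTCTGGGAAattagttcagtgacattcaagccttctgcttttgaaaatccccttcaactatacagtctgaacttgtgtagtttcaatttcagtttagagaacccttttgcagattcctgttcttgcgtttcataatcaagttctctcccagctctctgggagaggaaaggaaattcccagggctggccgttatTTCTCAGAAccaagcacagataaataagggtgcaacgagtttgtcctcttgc
The motif begins 154 bases before the RefSeq start of Socs3, 90 bases before that of Irf1, and 245 and 52 bases before that of Gbp5. The windows of Socs3 and Gbp5 lie inside the wider spans that the GENCODE annotation gives these genes, so they are not upstream of those spans. The motif was found in 2306 of 32851 such windows (7.02%). The counts of named genes are by gene, and a gene counted where any of its windows held the motif. They are therefore not like for like with that share. Of the 12 named higher genes 6 had a window and 2, Socs3 and Gbp5, held it. Of the 12 named lower genes 9 had a window and 1, Tnfrsf9, held it. Socs1, Batf and Cish had windows without it, as had the second start of Irf1. A match is a run of letters and no evidence of binding.

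The genes lower in members were led by Klrc1, which encodes the inhibitory receptor NKG2A. It was read in 2.09% of members and 10.8% of counterparts, at 11.7 and 74.4 CPM (log2 ratio -2.68, -3.24 to -2.16). Litaf, an endosomal protein gene, followed with 24.1 against 104 CPM (-2.11). The rest were Trf (-1.72), Serpinb9 (-1.63), Cables1 (-1.55), Hdac9 (-1.55), Anxa2 (-1.51), Kcnq5 (-1.50), Serpinb6b (-1.49), Tnfrsf9 (-1.46), Pglyrp1 (-1.39) and Ncald (-1.37). Serpinb9 encodes a granzyme B inhibitor, Anxa2 a membrane-binding annexin of activated cells and Tnfrsf9 the activation receptor 4-1BB. Cells with UMIs of both Ly6c2 and Ccl5 made up 14.8% of members and 26.6% of counterparts, and in those counterparts Klrc1 stood at 189 CPM. In counterparts with UMIs of both Ccr9 and Cd24a, Klrc1 stood at 3.53 CPM on 2 UMIs. Litaf, Serpinb9, Serpinb6b and Pglyrp1 stood there at 24.7, 15.9, 21.2 and 10.6 CPM, near or below their levels in members. Trf, Cables1, Hdac9, Anxa2, Kcnq5, Tnfrsf9 and Ncald were higher there than in members.

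Genes of the type 1 list, which mark interferon-γ-producing and cytotoxic lymphocytes and hold none of the genes of the rule, were lower in members without exception among the 14 of 18 that had enough UMIs. Their median log2 ratio was -1.05, beside -0.06 over all genes, and 7 were at least 2-fold lower, beside 1.92% of all genes. Ccl5, a chemokine of effector T cells, was read in 29.99% of members and 50.1% of counterparts, at 1208 and 3006 CPM (-1.32, -1.37 to -1.26). Of the 3212 Ccl5 UMIs of members, 177 lay in 1 cell. Ifng, the interferon-γ gene, stood at 11.7 and 29.5 CPM (-1.34), and Tbx21, which encodes the T-bet factor, at 11.7 and 28.4 CPM (-1.29). Cxcr3, a chemokine receptor of type 1 cells, stood at 28.6 and 69.2 CPM (-1.28), and Il2rb, a receptor chain for IL-2 and IL-15, at 369 and 600 CPM (-0.70). Nkg7, a cytotoxic granule gene, was nearer to parity at 276 and 364 CPM (-0.40, -0.52 to -0.29). Gzmk, below the UMI minimum with 17 UMIs in members and 5 in counterparts, was read in 0.558% of members.

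**Figure D2:**
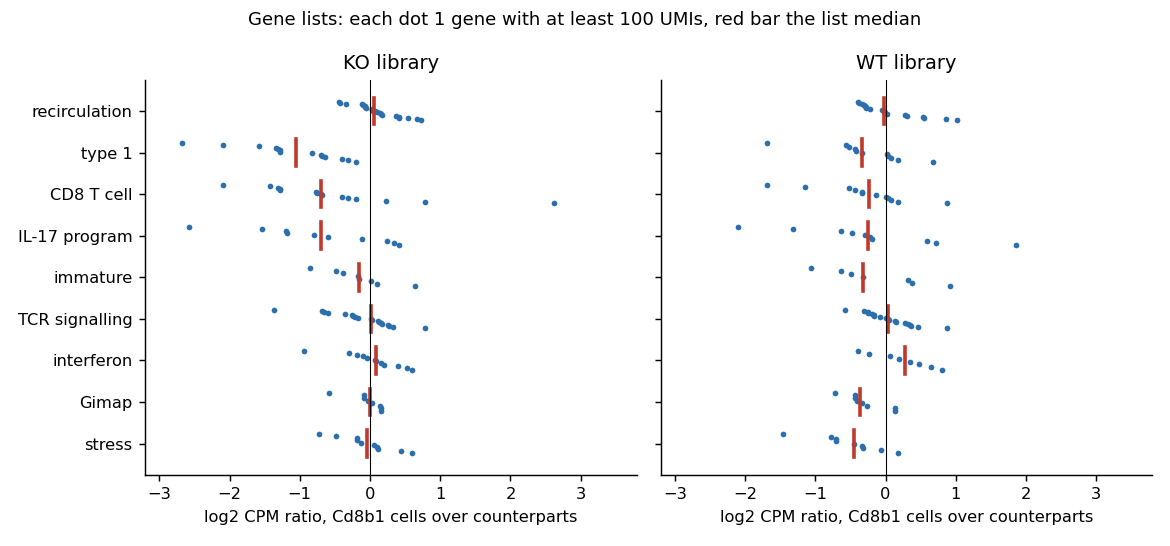
Log2 CPM ratio of Cd8b1 cells over Cd8b1-zero counterparts (x axis) for the genes of 9 lists (rows), in the KO library (left) and the WT library (right). Each dot is 1 gene with at least 100 UMIs and red bars are list medians, with the type 1 list at -1.05 in KO and -0.34 in WT.

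The CD8 T cell list, which holds genes known from CD8 αβ T cells, did not follow Cd8b1 as a group. Of 15 genes with enough UMIs, 1 (Cd8a) was at least 2-fold higher and 5 at least 2-fold lower, beside 0.196% and 1.92% of all genes, with a median of -0.70. Themis, a TCR signalling gene of developing and resting T cells, stood at 153 against 88.5 CPM (0.79, 0.62 to 0.96). Runx3, the factor that promotes the CD8 lineage, stood at 75.6 and 64.7 CPM with an interval that held 0 (0.22, -0.01 to 0.46). Cd7 stood at 304 and 520 CPM (-0.77) and Klrk1, which encodes NKG2D, at 4.89 and 21.0 CPM (-2.10). This list shares 9 of its genes with the type 1 list.

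As a list, recirculation genes stood in members at levels near those of the counterparts. Klf2 and Ccr7 were read in 642 and 601 of the 717 members, but not every gene of the list was read in most members. The list of 22 genes had a median of 0.06, with 14 genes above 0, beside 3168 of all 8160 genes. It held 0 genes past 2-fold in either direction, beside 0.196% of all genes higher and 1.92% lower. The highest ratio was that of Treml2, a receptor gene with 87 UMIs in members (0.73, 0.35 to 1.10). Ccr7, the lymph node homing receptor, came with a UMI in 83.8% of members and 54.8% of counterparts and 964 against 605 CPM (0.67, 0.60 to 0.74). Klf2, the factor that drives S1pr1, stood at 1159 and 867 CPM (0.42, 0.36 to 0.48). Tcf7, a factor of resting and memory T cells, stood at 493 and 438 CPM (0.17), and Lef1, its relative, at 681 and 715 CPM (-0.07, -0.15 to 0.00). Cd27, a costimulatory receptor of type 1 γδ T cells, was lower, at 289.5 and 395 CPM (-0.45), and Bcl2, a survival gene, stood at 102 and 136 CPM (-0.42). The list held genes that went either way, with intervals above 0 for 9 of its genes and below 0 for 6. The count of such intervals over all genes is not given, here or for the other lists.

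The IL-17 program list, after the genes of the rule were set aside, had a median of -0.70 over 10 of 17 genes, with 0 at least 2-fold higher and 4 at least 2-fold lower, beside 0.196% and 1.92% of all genes. Zbtb16, which encodes the innate lymphocyte factor PLZF, stood at 48.5 and 111 CPM (-1.19, -1.47 to -0.93), and S100a4, a gene of activated migratory cells, at 27.4 and 62.1 CPM (-1.18). Ccr2, a chemokine receptor, was at 6 UMIs in members and 133 in counterparts (-2.57, -4.04 to -1.41). Cd163l1 and 5830411N06Rik, which encode the scavenger receptors SCART1 and SCART2, went the other way, at 117 against 92.8 CPM (0.34) and 171 against 129 CPM (0.41). Il17a UMIs were 0 in members and 9 in counterparts, too few to compare.

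Genes of immature T cells had a median of -0.16 over 8 of 13 genes, with 0 past 2-fold, beside 0.196% of all genes higher and 1.92% lower. Ccr9, a homing receptor of recent thymic and gut T cells, stood at 96.3 and 61.8 CPM (0.64, 0.42 to 0.85), and Cd24a, a marker of immature γδ T cells, at 84.6 and 94.8 CPM (-0.16, -0.38 to 0.05). Both were read in 33 members (4.603%) and in 3.94% of counterparts. Rag1, Rag2 and Ptcra had 0 UMIs in both groups. Nr4a1, a gene induced by TCR signals, stood at 72.2 and 130 CPM (-0.85). The TCR signalling list had a median of 0.02 over 19 genes, with 1, Fcer1g, at least 2-fold lower (18.0 against 46.3 CPM, -1.36), beside 1.92% of all genes. Its genes went either way, with intervals above 0 for 8 and below 0 for 9. The median of the 8 Gimap genes, which are lymphocyte survival genes, was 0.00, and that of the 10 stress genes was -0.04, although Jun stood at 452 and 299 CPM (0.59) and Junb at 2724 and 2013 CPM (0.44).

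Markers of other cell types were sparse in members. UMIs of 2 or more B cell genes were found in 4 members and 9 counterparts (0.558% and 0.314%), and of 2 or more myeloid genes in 4 and 21 (0.558% and 0.732%). The B cell genes Cd79a and Cd79b had 43 and 66 UMIs in members (log2 ratios 0.99 and 0.70), whereas Ms4a1 had 6 and Pax5 had 1. Lyz2, a myeloid gene, had 7 UMIs in members and 310 in counterparts, and Scgb1a1, an airway gene, 8 and 327. Cd4 had 1 UMI in members. Their part in the differences above was not tested. With cells of very high UMI counts and cells with UMIs of 2 or more of these B cell or myeloid genes left out, the type 1 median was -1.14 and the recirculation median 0.08.

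Levels were also set out by the number of Cd8b1 UMIs per cell. In cells with 0, 1, 2 and at least 3 Cd8b1 UMIs, Cd8a stood at 7.25, 37.6, 30.7 and 72.9 CPM. Ccr7 stood at 605, 896, 881 and 1181 CPM in the same order. Socs3 stepped once, from 526 CPM in cells with none to 1061, 1111 and 1112 CPM. Ly6c2, a surface protein gene of activated and memory T cells, went from 499 to 362, 263 and 204 CPM, and its thinned share from 29.8% to 20.1%, 18.7% and 11.3%. Ccl5 went from 3006 to 1205, 1582 and 833 CPM, with thinned shares of 50.3%, 31.0%, 27.5% and 21.4%. Neighbouring classes of members overlapped in their intervals for the thinned shares of each of these genes. Trf, which encodes the iron carrier transferrin, went from 70.6 to 33.8, 14.6 and 4.46 CPM, the last on 3 UMIs. Ly6c2 and Trf thus went down at each step, while Cd8a, Ccr7 and Ccl5 differed between cells with none and cells with any but were not in order across 1, 2 and at least 3. Trdc stood at 186, 196, 187 and 177 CPM, and S1pr1 was at 400, 405, 447 and 415 CPM.

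**Figure D3:**
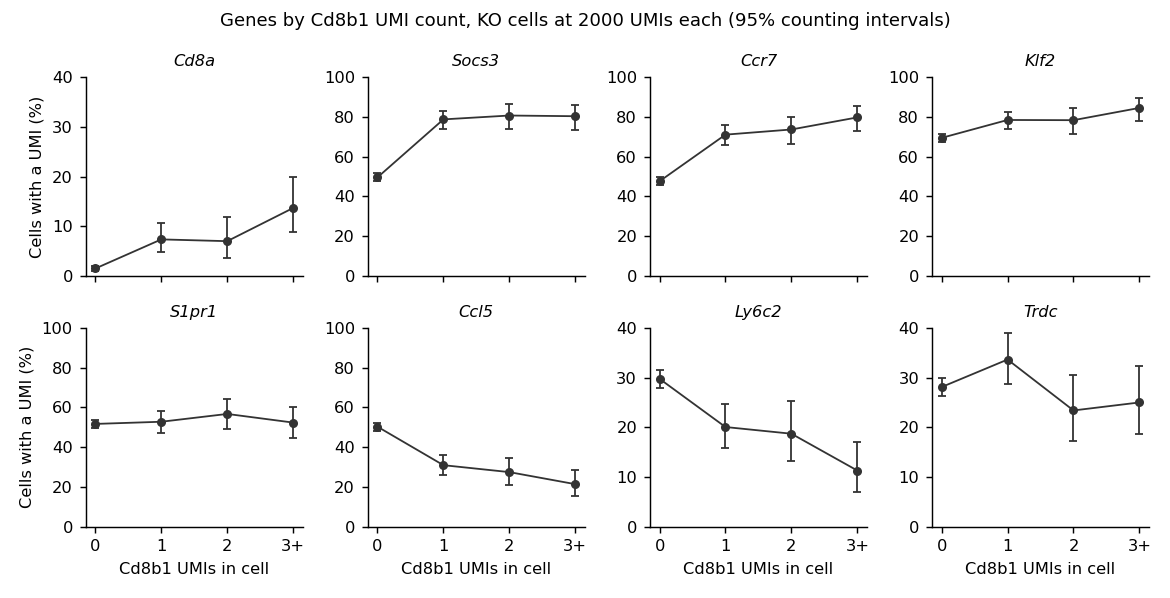
Share of KO cells with a UMI of each gene (y axis, %) by the number of Cd8b1 UMIs in the cell (x axis), after every cell was thinned to 2000 UMIs, with exact 95% counting intervals. The 4 classes hold 2869, 369, 176 and 172 cells before thinning; Socs3 and Ccr7 are higher with 1 than with 0, Ccl5 and Ly6c2 are lower, and S1pr1 is level.

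Members with and without β variable transcripts were then set side by side. The 387 members with a Trbv UMI and the 330 without one stood at 1078 and 1107 CPM of Socs3, with TCR genes left out of the totals (log2 ratio -0.04, -0.15 to 0.07). Klf2 stood at 1155 and 1173 CPM (-0.02, -0.13 to 0.08) and Ccr7 at 894 and 1073 CPM (-0.26, -0.38 to -0.15). Trdc stood at 189 and 190 CPM (-0.01, -0.27 to 0.25). Cd7 differed more, at 373 and 208 CPM (0.84, 0.61 to 1.07), as did Anxa2, at 79.4 and 34.9 CPM (1.19, 0.65 to 1.75). Larger ratios rested on fewer UMIs, those of Klrc1 (26 and 5 UMIs, 1.86, 0.45 to 3.60), Trf (46 and 11, 1.54) and S100a4 (58 and 15, 1.43). Of 3927 genes tested without TCR genes, 5 were past 2-fold higher with Trbv and 1 lower. Socs3 and Klf2 were thus at like levels in members with and without Trbv. Ccr7 was lower, and Cd7, Anxa2, Klrc1, Trf and S100a4 were higher, in members with Trbv.

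The WT library gave the same contrast in cells that had no part in choosing the genes. By the same rule 66 of 2505 kept WT cells had Cd8b1 UMIs (2.63%, 2.04 to 3.34%), and 809 were counterparts. Over members and counterparts together the share was 20.0% in KO (18.7 to 21.3%) and 7.54% in WT (5.88 to 9.50%). All 12 of the named higher genes were above 0 in WT as well, where 1848 of 4611 genes tested were, and all 12 of the named lower genes were below 0. Genes tested had at least 100 UMIs over both WT groups. Some named higher genes had fewer, such as Cd8a with 18 and 30 and Gm14085 with 16 and 23, so the background is not like for like. The WT intervals excluded 0 for 5 of the higher and 7 of the lower genes, and the count of such intervals over all WT genes is not given. Cd8a stood at 61.7 against 10.8 CPM in WT (2.52, 1.59 to 3.41), Socs3 at 572 against 352 CPM (0.70, 0.45 to 0.94) and Gm14085 at 54.8 against 8.25 CPM (2.73, 1.71 to 3.72). Anxa2 stood at 68.6 against 180 CPM (-1.39, -2.11 to -0.75) and Tnfrsf9 at 13.7 against 71.1 CPM (-2.37, -4.26 to -0.99). Klrc1 was lower by less than in KO (-0.57, -1.12 to -0.06).

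**Figure D4:**
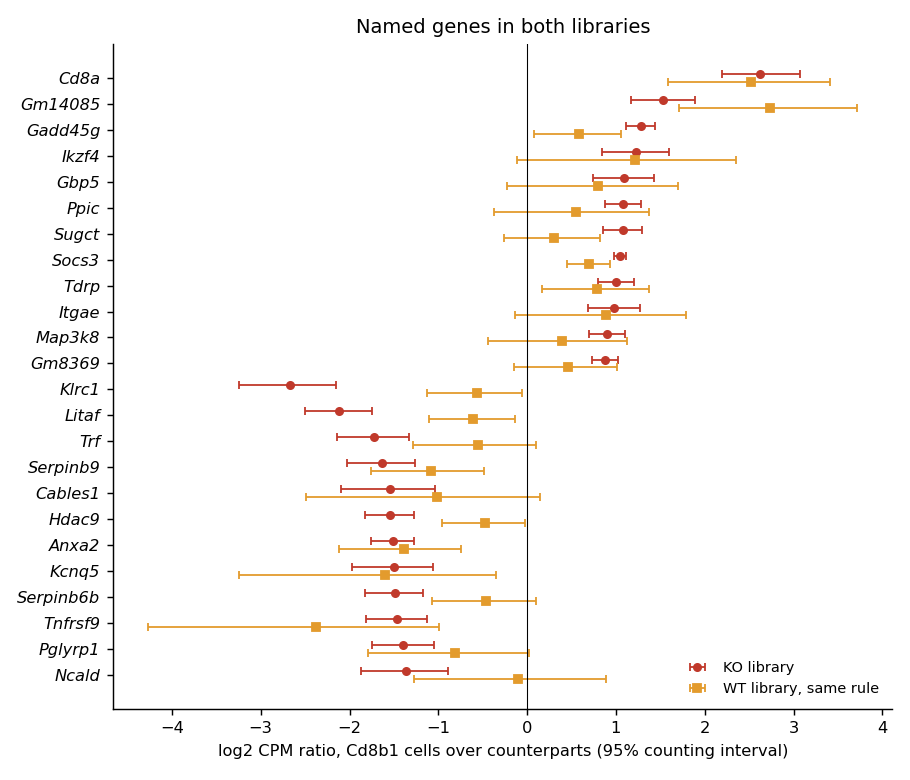
Log2 CPM ratio of Cd8b1 cells over Cd8b1-zero counterparts (x axis) with exact 95% counting intervals for the 24 genes named by size in the KO library (rows), in the KO library (circles) and the WT library (squares). The squares lie on the same side of 0 as the circles for all 24 genes, most of them nearer to 0 and with wider intervals.

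The gene lists were less alike between the libraries. In WT the type 1 list had a median of -0.34 over 11 genes, 5 of them above 0, and Ccl5 stood at 4343 and 4257 CPM (0.03). Ccr7 at 915 and 505 CPM (0.86) and Klf2 at 312 and 213 CPM (0.55) were higher in WT Cd8b1 cells too. The 66 WT cells also held 299 Lyz2 UMIs, against 7 in the 717 KO members, and 194 Gzma UMIs, so myeloid and cytotoxic transcripts were part of the WT sum. Their part in the WT values was not tested.

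Last, KO members were set against the WT cells of the same rule, for genes with at least 100 UMIs over both. Of 4254 genes, 154 (3.62%) were at least 2-fold higher in KO members and 57 (1.34%) at least 2-fold lower. Most UMIs in the sum were of KO members, so genes passed the minimum mainly through them and the balance of these counts depends on it. The recirculation list had a median of 0.28 over 21 genes. Of these 16 were above 0, beside 2426 of all 4254 genes. Only 1, Klf2, was past 2-fold (1159 against 312 CPM, 1.89, 1.59 to 2.21). Klf2 stood apart in the counterparts of the libraries as well, at 867 CPM in KO and 213 in WT. S1pr1 stood at 419 and 295 CPM (0.51, 0.19 to 0.84), Ccr7 at 964 and 915 CPM (0.08, -0.11 to 0.26). Cd8b1, which chose both groups, stood at 535 and 432 CPM. Ccl5 was among the 8 lowest, at 1208 and 4343 CPM (-1.85, -1.94 to -1.75), with Stmn1 (-2.80), Litaf (-2.51), Ftl1 (-2.002), Rgs1 (-1.95) and Vim (-1.86). In KO cells with myeloid or B cell genes, Litaf, Ftl1 and Vim stood at 643, 1200 and 2387 CPM. Stmn1 and Rgs1 stood there at 12.4 CPM each and Ccl5 at 0. The part of myeloid transcripts in these differences was not tested. The other 2 of the 8 lowest, Rpl9 (-2.28) and Rpl10 (-1.96), and the higher Rpl9-ps6 (2.40) can share reads with near-identical copies and are uncertain. Gm8797 (3.65) was the highest of the 8, and its counterparts stood at 411 CPM in KO and 44.5 in WT. Those of Ftl1 stood at 176 and 734 CPM, so neither gap was limited to cells with Cd8b1 UMIs. Counterparts also differed in the same direction for Rgs1 (74.6 and 245 CPM), Stmn1 (36.2 and 97.6), Litaf (104 and 209) and Ccl5 (3006 and 4257). Those of Vim stood at 177 and 168 CPM. The remaining genes among the 8 highest, Farsb, Wdr77, Ephx1, Rarg, Adsl and Gm47283 (on chromosome Y), rested on 2 to 4 WT UMIs each.

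δ variable gene use also differed between the KO and WT cells of the rule. These shares again leave out cells with a dv6 UMI, which were 199 of 961 KO and 9 of 88 WT Cd8b1 cells. Trdv1 held 4.96% of 262 δ variable UMIs in the WT cells (2.67 to 8.34%), against 41.5% in KO members, and Trav13-4-dv7 held 36.3% against 11.2%. Trdv2-2 held 31.7% and 31.4%. Trbv UMIs were found in 35 of the 66 WT cells (53.0%, 40.3 to 65.4%) and in 36.1% of WT counterparts (32.8 to 39.5%), and Trac UMIs in 5 (7.58%). In WT the Trbv share was thus higher in Cd8b1 cells than in counterparts before thinning, with intervals that did not overlap. Median depths were 4040 and 3093 UMIs. After thinning the shares were 42.9% (30.5 to 56.0%) and 30.1% (26.6 to 33.7%), with intervals that overlapped.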

How the data were processed

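Lung γδ T cells were sorted and 1 single-cell library per group was sequenced. The authors deposited UMI counts per gene and cell, not normalized, from Cell Ranger (7.0.0 in the file headers, 7.0 in the submitters' notes, an older version in the study's methods) on mm10. The labels name a 3′ kit and the methods a V(D)J 5′ kit. The KO library held 26436826 UMIs in 6688 barcodes and the WT library 9173997 in 2520. Of 32285 gene identifiers, 32158 were in the GENCODE annotation used for positions.

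Cells were kept and chosen as the report states. Counts were summed per group and scaled to CPM with no pseudocount. Ratios carry exact conditional 95% intervals and shares exact Clopper-Pearson 95% intervals. Where a share was 0, the limit given is 3 counts of the total. Scripts used Python 3.11.15, numpy 2.4.6, pandas 2.3.3, scipy 1.17.1 and matplotlib 3.10.9, and were tested on simulated data. The groups have no replicate libraries. No doublet caller was run, and an alternative left out high-UMI cells and cells with B or myeloid genes. Genes named by size were the 12 highest and 12 lowest ratios (8 and 8 for KO against WT) with at least 100 UMIs in sum and detection in 10% or more of either group, without TCR, mitochondrial and rule genes and a fixed list of sex-linked genes (Gm47283 is not on it), and genes of the lists were named by their size or role. The members and lists were chosen with earlier results of these data known. The alternative that left out cells without a Trdc UMI was chosen after seeing the data.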

Additional observations from a re-analysis of the deposited data

Results flagged for a closer look

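Cd8b1 UMIs were also found in KO cells that the rule left out. They were in 13.5% of the 1479 cells with a dv6 gene, in 3.95% of cells with 3 or more IL-17-type genes and in 4.29% of cells with 3 or more cytotoxic genes, the last on 3 of 70 cells. The NK cell list had a median log2 ratio of Cd8b1 cells over counterparts of -1.29 over 4 genes in KO and 1.75 over 3 genes in WT. The difference between the libraries was not tested, and Gzma and Klrb1c of that list are genes of the rule.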

How the results depend on the processing

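Of 66 comparisons of 9 results with 9 alternatives, 58 stayed within the interval of the reported value (for the gene count, within 1.5 times it) and 8 moved further. For a list median that interval was taken from the counting bounds of the middle gene or genes and is not an interval of the median. It ran from -0.26 to 0.86 for recirculation in KO members against WT, so staying within it is a weak check. The share of members was 5.25% with at least 2 Cd8b1 UMIs required, 9.54% after thinning to 2000 UMIs, 9.68% with fewer than 2 effector genes allowed and 4.97% with Trbv cells left out. After thinning, Trdc was read in 28.0% and Trbv in 44.6% of members. Genes past 2-fold numbered 173 as reported, 479 (47 higher and 432 lower) with a minimum of 30 UMIs and 85 (9 higher and 76 lower) with cells without a Trdc UMI left out. The list medians ranged from 0.01 to 0.12 for recirculation, -1.45 to -0.77 for type 1 and -0.99 to -0.40 for the IL-17 program. For recirculation in KO members against WT the median was 0.28 as reported and ranged from 0.19 to 0.47, with 0.44 for at least 2 Cd8b1 UMIs and 0.47 without cells lacking a Trdc UMI. No paired analysis was possible because neither condition was sequenced more than once. Reads per cell limit every share, and a cell without a UMI may hold the transcript.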
